A study of Mus musculus with 24 samples.

Results

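The 12 LLC1-bearing mice were ranked by how strongly their gastrocnemius expressed Fbxo32 and Trim63, and the 6 mice with the higher scores were compared with the 6 with the lower scores. The score of a mouse was the mean of log2(CPM + 0.5) over the 2 genes, with CPM (counts scaled to the library total). Within each sex the 3 highest scores formed the high-score tier and the 3 lowest the low-score tier, so the comparison used 12 of the 24 libraries. The tiers were thus chosen by measured levels of these 2 genes. Muscle mass is not analysed here, so the tiers stand for a transcript score and not for measured wasting. The mice were C57BL6 females and males, 7 weeks old at injection, and the muscle was taken after 3 weeks of tumour growth. The other 12 mice, 6 of each sex, received PBS vehicle at the same age and serve here as the untreated level. LLC1 is the Lewis lung carcinoma line, a transplanted tumour line of this mouse strain, placed under the skin. Libraries are named here by the numbers of their titles (2-3, 1-5 and so on). The labels name no cage, litter or separate animal for them, so p-values are set against a spread between samples that may be partly technical. As the tiers are ranks of 2 measured transcripts, a p-value between tiers measures how closely another gene follows that ranking. All libraries of a sex and treatment share a sequencing lane, so lane does not separate the tiers within a sex.

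Fbxo32 encodes atrogin-1 and Trim63 encodes MuRF1, muscle ubiquitin ligases that tag proteins of the fibre for destruction by the proteasome. Both genes are classic targets of glucocorticoids and of the FoxO transcription factors, the latter acting when insulin and IGF signalling falls. Both rise in fasting, denervation, sepsis and cancer cachexia. Proteasome subunits, autophagy genes and metallothioneins commonly rise in the same settings. The 2 ranking genes are described below without a test, because they chose the tiers.

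In females, Fbxo32 stood at 1477 CPM in high-score mouse 2-3, 984 in 2-4 and 709 in 2-1, and at 544, 745 and 505 CPM in low-score mice 2-5, 1-5 and 1-4. Trim63 stood at 833, 471 and 538 CPM in the same high-score females and at 580, 298 and 315 CPM in the low-score females. In males, Fbxo32 reached 4136 CPM in high-score mouse 1-5, 3343 in 2-4 and 2333 in 2-1, against 2259, 990 and 867 CPM in low-score mice 2-5, 1-4 and 2-2. Trim63 reached 2871, 2564 and 2375 CPM in the high-score males, against 1168, 655 and 435 CPM in the low-score males. The vehicle mice held 132 to 486 CPM of Fbxo32 and 171 to 282 CPM of Trim63.

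**Figure D1:**
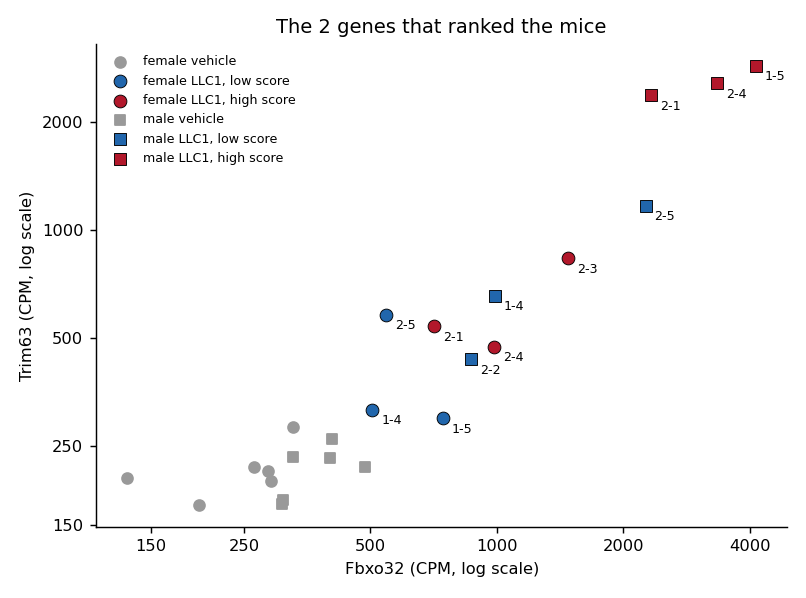
Each point is a mouse, with Fbxo32 on the x axis and Trim63 on the y axis, both in CPM of the library total on log scales; circles are females, squares males, and the numbers are the mouse numbers of the LLC1 mice. The high-score males stand apart at the top right, while the female tiers lie next to each other, between 298 and 833 CPM of Trim63.

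The tiers were far apart in males and close in females. The male tiers averaged 11.49 and 9.86 score units, a distance of 1.63, and the female tiers 9.60 and 8.89, a distance of 0.71. Female 2-1, just inside the high tier, had a score of 9.27 and female 2-5, just outside it, 9.14, a gap of 0.137 in a female range of 1.47. The male gap lay between 11.2 in mouse 2-1 and 10.67 in mouse 2-5, or 0.535 in a range of 2.49. Ranking on either gene alone put all 6 males in the same tier, but only 4 of 6 females. When the score was scaled with TMM factors, which correct for library composition, female 2-5 (9.24) ranked above female 2-1 (9.14) and the 2 exchanged tiers. The score of male 2-5, a low-score mouse, was above that of every female.

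Total counts were 32.7 to 44.7 M (mega-counts) in the high-score and 30.8 to 41.3 M in the low-score libraries. They differed by 1.20 M on average within sexes (exact two-sided permutation within sexes, p = 0.63, 6 against 6). The share of counts in the top 10 genes of a library averaged 24.2% ± 1.64 in high-score and 26.1% ± 1.32 in low-score mice (SD, n = 6, exact permutation p = 0.065, or 0.26 adjusted over 4 measures of depth and composition). Some libraries stood apart in markers of other cells. Erythroid markers summed to 20213 CPM in high-score female 2-4 and to 1295 to 3247 CPM in the other female LLC1 mice. In low-score male 1-4, T cell and NK cell markers summed to 22.5 CPM and B cell and plasma cell markers to 86.3 CPM, against at most 2.96 and 23.5 CPM in the other male LLC1 mice. Muscle fibre markers, which define the labelled tissue, summed to 174712 to 258014 CPM over the 12 mice.

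The first question was which genes followed the tiers over both sexes, with sex as a block. Fibin, a secreted fin bud initiation factor homologue, was the 1 gene called by the fit as designed, and other settings called more. With edgeR's quasi-likelihood test and Benjamini-Hochberg adjustment over 17059 genes, 0.00586% of genes were called higher and 0% lower at an adjusted p under 0.05, although 2806 genes had an unadjusted p under 0.05, and DESeq2 called 173 higher and 141 lower. A fit of all 24 libraries called 966 higher and 634 lower, and tiers from the TMM-scaled score, with females 2-1 and 2-5 exchanged, 87 and 121. Fibin (ENSMUSG00000074971, chromosome 2, 110360917 to 110363183 in mm10) stood at 30.2, 24.6 and 36.9 CPM (from here on TMM-scaled) in the high-score females and at 18.4, 14.1 and 19.9 CPM in the low-score females. In males it stood at 43.5, 40.2 and 43.3 CPM against 17.96, 20.2 and 16.4 CPM. The tiers did not overlap in either sex. Vehicle females held 12.6 to 29.8 CPM, the highest above high-score female 2-4, and vehicle males 10.2 to 15.2 CPM, all below the low-score males. The log2 fold change was 1.01 ± 0.12 (SE, adjusted p = 0.0213, higher in 6 of 6). The call was lost without any of 9 of the 12 mice in turn (adjusted p 0.0618 to 0.11) and with the TMM-scaled score (0.63, adjusted p = 0.181).

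Several other genes showed no overlap of the tiers in either sex without passing the adjusted threshold, and these were picked out after their values had been seen. Such genes made up 1.14% of those tested in the upward and 0.832% in the downward direction. Clec3b, which encodes the plasminogen-binding protein tetranectin, stood at 20.4 to 22.5 CPM in high-score and 28.4 to 36.8 CPM in low-score females. In males it stood at 12.2 to 16.5 CPM against 22.9 to 30.6 CPM (log2 fold change over both sexes -0.75 ± 0.11, adjusted p = 0.0841). Arhgap26 stood at 36.1 to 52.5 CPM against 15.7 to 33.5 CPM in females and at 36.2 to 46.8 CPM against 19.9 to 24.04 CPM in males (0.97 ± 0.17, adjusted p = 0.0996). Klhl38, an E3 adaptor gene whose neighbour on chromosome 15 is Fbxo32, stood at 100.2 to 142 CPM against 70.7 to 77.1 CPM in females and at 184 to 233 CPM against 111 to 166 CPM in males (0.67 ± 0.12, adjusted p = 0.0996). It shares reads with a gene, Gm15943, that also overlaps Fbxo32 and was not tested. Srebf1, the master regulator of fatty acid synthesis, was lower in the high-score mice of both sexes (-0.57 ± 0.10, adjusted p = 0.109), as was Hdac9, a class IIa histone deacetylase gene (-0.98 ± 0.19, adjusted p = 0.119).

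Antigen presentation genes of MHC class II separated the tiers in both sexes without passing the adjusted threshold. H2-Ab1, a chain of the MHC class II molecule, stood at 16.7, 16.1 and 17.3 CPM in high-score females and at 37.0, 26.4 and 24.8 CPM in low-score females. In males it stood at 14.1, 14.7 and 15.2 CPM against 19.1, 26.9 and 19.0 CPM. The high-score mice formed a narrow band below every low-score mouse of their sex, while vehicle mice covered both levels (12.9 to 37.1 CPM in females and 13.2 to 24.6 in males). The log2 fold change was -0.70 ± 0.12 over both sexes (adjusted p = 0.0996), and -0.81 ± 0.15 in females and -0.58 ± 0.15 in males. H2-Aa (-0.66 ± 0.13), H2-Eb1 (-0.68 ± 0.12) and Cd74, the invariant chain gene (-0.59 ± 0.12), had non-overlapping tiers on the same side in both sexes, with adjusted p of 0.13, 0.109 and 0.154. Of 33 interferon-stimulated and antigen presentation genes tested, 6 had non-overlapping tiers on the low side in both sexes: H2-Aa, H2-Ab1, Cd74, Stat2, Psmb10 and Psme1, the last a proteasome activator gene. Among all genes tested, 0.832% had this pattern. None of the 33 passed over both sexes, and their median was -0.25 where that of all genes was 0.00. Macrophage and monocyte markers, 17 genes, summed to 194 to 389 CPM in high-score and 249 to 448 CPM in low-score females and to 311 to 361 against 328 to 390 CPM in males. B cell and plasma cell markers summed to 10.3 to 18.3 CPM in high-score and 21.1 to 86.3 CPM in low-score males, and to 7.82 to 24.1 against 9.10 to 14.2 CPM in females. The part of these cells in the result was not tested. Without male 1-4 the change of H2-Ab1 over both sexes was -0.63 (adjusted p = 0.253). In bulk muscle, fewer cells of a type and less RNA per cell cannot be told apart.

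**Figure D2:**
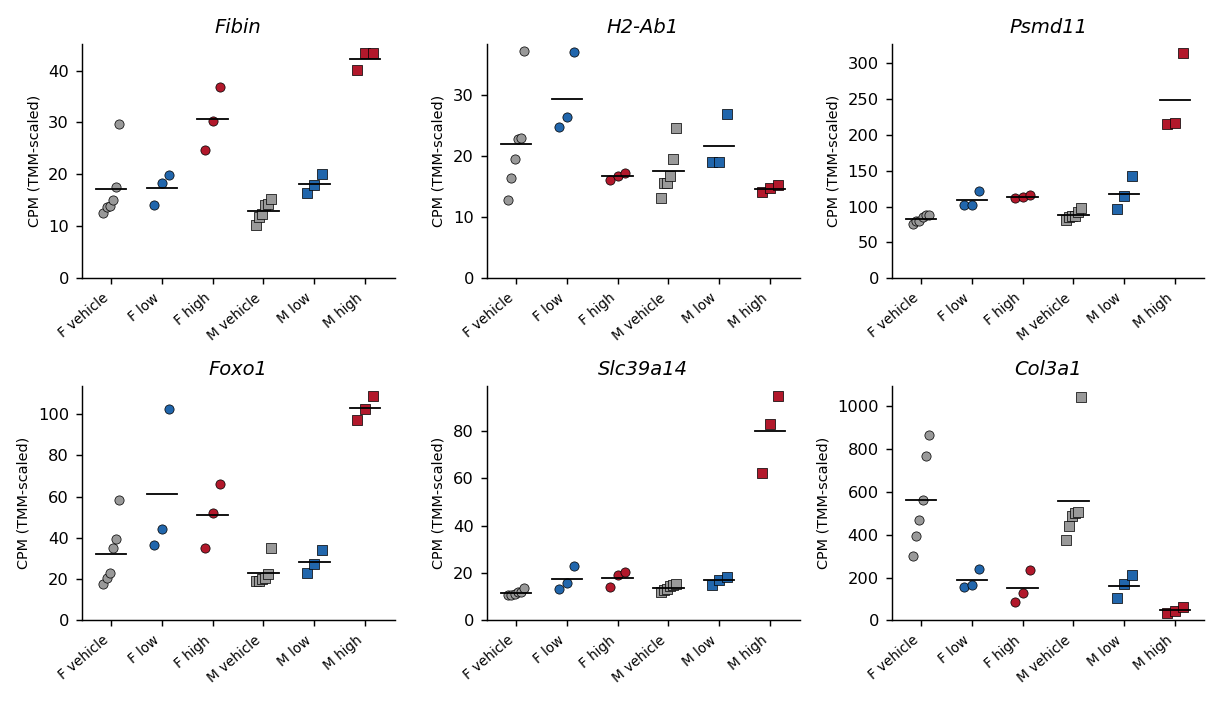
Each point is a mouse and each bar the mean of a group, in TMM-scaled CPM, for 6 genes by sex (F, M) and by vehicle, low-score and high-score group. Fibin is higher and H2-Ab1 lower in the high-score than in the low-score tier of both sexes, while Psmd11, Foxo1 and Slc39a14 are highest in the 3 high-score males, which low-score female 2-5 equals for Foxo1 (103 CPM), and Col3a1 is lowest there.

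The tiers were then compared within each sex. In the 6 males 916 genes were higher and 659 lower in the high-score tier, 5.91% and 4.25% of the 15504 tested. In the 6 females edgeR called 0% of 15903 genes in either direction, with 446 at an unadjusted p under 0.05 (DESeq2 called 6 higher and 11 lower). Non-overlapping tiers were found for 19.3% of genes upward and 16.1% downward in males, and for 4.17% and 3.55% in females. The difference between the sexes was tested directly. With the tier by sex interaction, 90 genes (0.528%) had a larger and 29 (0.17%) a smaller log2 difference in males than in females. The male counts rested on low-score males 1-4 and 2-2: without mouse 1-4, 33 genes were higher and 10 lower, and without mouse 2-2, 84 and 42. They fell to 528 and 278 without high-score male 1-5 and to 417 and 222 without 2-1. Leaving out male 1-4 or 2-2 ended all calls of the interaction. The larger and smaller counts fell to 1 and 1 without female 2-1, 7 and 0 without 2-3, 11 and 2 without 1-5, 16 and 1 without 1-4, 34 and 8 without 2-5 and 43 and 12 without 2-4. They were 5 and 0 without male 2-1 and 19 and 2 without 1-5, and rose to 176 and 98 without male 2-4 and to 319 and 131 without male 2-5.

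The first principal component of expression was computed within each sex. It held 58.5% of the variance among the male LLC1 mice and ordered them by tier, with the high-score mice at 13.9 to 41.2 and the low-score mice at -31.7 to -10.8. In females it held 47.5% of the variance and set 2-4 (high-score, 26.9) and 2-5 (low-score, 30.4) against the other 4 mice (-18.1 to -9.49). Those 2 females also had the lowest sums of macrophage and monocyte markers (194 and 249 CPM against 342 to 448 in the other 4), of tendon markers (142 and 75.6 against 321 to 867 CPM) and of fibro-adipogenic progenitor markers (1615 and 1871 against 2337 to 2827 CPM). Their part in the female result was not tested.

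**Figure D3:**
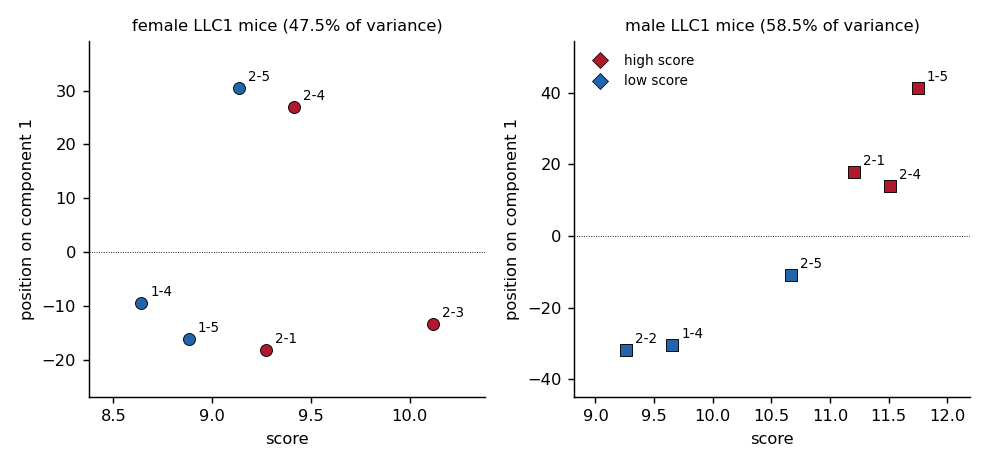
Each point is an LLC1 mouse, with its score on the x axis and its position on the first principal component of its sex on the y axis; colours give the tier. The male tiers fall on opposite sides of 0, and in females a high-score and a low-score mouse (2-4 and 2-5) share the upper side.

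The genes most changed between the male tiers were named by size among those called, without shared reads and with non-overlapping tiers, a rule written for the comparison over both sexes and carried over to males. Slc39a14, which encodes the zinc importer ZIP14, stood at 94.6, 62.4 and 82.9 CPM in high-score and at 18.3, 17.2 and 15.1 CPM in low-score males (2.23 ± 0.16, adjusted p = 0.00171). The females of both tiers lay between 13.4 and 23.0 CPM, and vehicle mice between 10.8 and 15.4 CPM. Ampd3, the AMP deaminase gene that rises in wasting muscle, stood at 48.8 to 101 CPM against 17.6 to 19.5 CPM in males (2.06 ± 0.25, adjusted p = 0.0077) and at 22.4 to 29.6 CPM in all 6 females. The metallothionein genes Mt2 and Mt1 were higher by 2.37 ± 0.40 and 2.13 ± 0.38 (adjusted p = 0.0192 and 0.0209). The other 8 with the largest rise were Gm10309, which rose most (4.36 ± 0.64), Oacyl (2.57), Zwint (2.28), Tekt1 (2.16), 2410006H16Rik (2.08), the vesicle release gene Doc2b (2.04), Figf (2.02), which encodes VEGF-D, and Egln3 (2.01), which encodes an oxygen-sensing prolyl hydroxylase.

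Among the genes lower in high-score males, Plcd4, a phospholipase C gene, fell furthest, to 9.11, 24.3 and 15.8 CPM from 66.1, 119 and 172 CPM (-2.87 ± 0.46, adjusted p = 0.0174). The 6 females held 88.6 to 140 CPM in no order of tier. Pde4a, a cyclic AMP phosphodiesterase gene, stood at 2.97 to 7.54 CPM against 18.6 to 29.0 CPM in males (-2.18 ± 0.32, adjusted p = 0.0143). Vehicle mice held 37.7 to 49.4 CPM and the females of both tiers 18.5 to 24.7 CPM, so that levels fell from vehicle through low-score to high-score males. Ky, which encodes a Z-disc protein needed for muscle growth and stability, stood at 23.9 to 51.4 CPM against 99.7 to 205 CPM in males (-2.12 ± 0.34, adjusted p = 0.0169). Others among the most lowered were Fgfbp1 (-2.51), Lrrc38 (-2.31), Gm4841 (-2.24), Dact2 (-2.17), the cadherin gene Cdh4 (-2.11), Sec14l5 (-2.08), RP23-103B18.8 (-1.99) and RP23-59N15.4 (-1.92).

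The protein-degradation genes around the ranking pair were examined next. All 32 proteasome subunits tested had a positive log2 difference in males, with a median of 0.75 where all genes had -0.01, and 13 were called higher and 0 lower. In 30 of the 32 every high-score male was above every low-score male, a pattern shown by 19.3% of all genes. The shares of all genes called in males were 5.91% higher and 4.25% lower. In females 16 of 32 were positive, the median was 0.00, none was called and none had non-overlapping tiers. Psmd11, a lid subunit, stood at 315, 216 and 215 CPM in high-score males and 142, 115 and 97.2 CPM in low-score males (1.06 ± 0.19, adjusted p = 0.0175). In females it stood at 111 to 116 CPM and 102 to 122 CPM, and in vehicle mice of both sexes at 76.1 to 98.3 CPM. Psma5, of the core ring, differed by 1.05 ± 0.23 in males (adjusted p = 0.0306) and Psmd12 by 0.74 ± 0.15 (adjusted p = 0.0245). Psmd8 stood at 371 to 606 CPM against 231 to 331 CPM in males (0.77 ± 0.21, adjusted p = 0.0495). None of the 32 passed the interaction, whose median was 0.81. Without male 1-4 or 2-2, 0 subunits were called, with medians of 0.71 and 0.65.

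Of 28 other ubiquitin ligases, 8 were higher and 1 lower in high-score males (median 0.28). Fbxo30, the MUSA1 ligase gene, stood at 31.7 to 35.9 CPM against 17.2 to 21.3 CPM (0.81 ± 0.11, adjusted p = 0.0077), and at 11.8 to 16.0 CPM in all 6 females. Fbxo31 was higher by 0.57 ± 0.15 (adjusted p = 0.0443), Zfand5, which encodes a proteasome activator, by 0.64 ± 0.13, and Trim54, a relative of Trim63, by 0.64 ± 0.14. Among 23 genes of ubiquitin and its conjugation, 5 were higher, including Zfand2a and Ube4b, and the deubiquitinase gene Usp2 was lower (-0.65 ± 0.15). Zfand2a, a stress-induced partner of the proteasome, stood at 28.0, 21.4 and 29.0 CPM in high-score males, 10.5 to 10.9 CPM in low-score males and 9.18 to 11.6 CPM in females (interaction 1.43 ± 0.17, adjusted p = 0.0155). Of 17 genes of proteasome assembly and regulation, 5 were higher in males, among them Ufd1l, Nploc4 and Nfe2l2. Of all genes, 5.91% were higher and 4.25% lower in males. Without male 1-4, 0 ligases, 1 conjugation gene and 0 assembly genes were called, and without 2-2, 1, 1 and 0, while the ligase count was also 1 without 2-1. In females 0 genes of these 3 lists were called, and the medians were between -0.02 and 0.02.

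Autophagy and lysosome genes were also called in males. Of 28 autophagy genes, 9 were higher and 0 lower in high-score males (median 0.25). In females the median was 0.03 with 0 called. Gabarapl1, which encodes an LC3 relative on autophagosomes, stood at 131, 93.1 and 143 CPM in high-score males, 48.3 to 62.9 CPM in low-score males and 37.4 to 58.0 CPM in females (male log2 fold change 1.14 ± 0.18, adjusted p = 0.0118). The mitophagy receptor gene Bnip3 differed by 1.06 ± 0.19, Map1lc3b by 0.63 ± 0.17 and Atg14 by 0.54 ± 0.11. Of 20 lysosome genes 4 were higher in males. Atp6v1h, a subunit of the proton pump, stood at 96.8, 49.4 and 78.7 CPM against 16.8 to 22.2 CPM (1.87 ± 0.24), the protease gene Ctsl differed by 0.84 ± 0.17 and the cholesterol exporter gene Npc1 by 1.13 ± 0.18. Without male 1-4 or 2-2, 0 autophagy genes were called, with medians of 0.26 and 0.25. The 4 lysosome calls became 0 without male 1-4, 1 without 2-2 and 2 without 2-1, and the 9 autophagy calls 3 without 1-5 or 2-1. The share of all genes called higher in males was 5.91%.

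Foxo1, a FoxO factor gene upstream of the ligases, stood at 97.2, 102 and 109 CPM in high-score males and 33.98, 27.2 and 23.0 CPM in low-score males (1.86 ± 0.15, adjusted p = 0.00171). In females it was highest in low-score mouse 2-5, at 103 CPM, and the other females held 35.0 to 66.3 CPM. Foxo3 differed by 0.79 ± 0.16 in males (adjusted p = 0.0219). Cdkn1a, the cell cycle inhibitor p21, stood at 116, 95.4 and 128 CPM against 36.7 to 53.4 CPM in males and at 31.0 to 43.8 CPM in all 6 females (interaction 1.42 ± 0.24, adjusted p = 0.0295). Sesn1, a stress-induced inhibitor of mTORC1, stood at 170 to 256 CPM against 44.2 to 64.1 CPM in males (1.92 ± 0.19), and the interaction was 1.79 ± 0.33 (adjusted p = 0.0403). Gadd45a, a growth-arrest gene induced in atrophy, differed by 1.497 ± 0.33 in males. In all, 6 of the 18 genes of FoxO factors and growth arrest were higher and 1 lower in males, with a median of 0.09. The shares of all genes were 5.91% and 4.25%. Without male 1-4 or 2-2, 3 of the 18 were higher and 0 lower.

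Of 23 glucocorticoid-responsive genes, 4 were higher and 1 lower in high-score males, and the median was 0.49. Fkbp5, a standard readout of the glucocorticoid receptor, stood at 260, 276 and 313 CPM in high-score males and 91.4 to 127 CPM in low-score males (1.35 ± 0.15, adjusted p = 0.00452). In females low-score mouse 2-5 again had the highest level, 174 CPM, against 82.3 to 132 CPM in the others. Klf15 (0.59 ± 0.18, adjusted p = 0.0724), Cebpd (1.20 ± 0.45, 0.129) and Cebpb (0.71 ± 0.23, 0.0792) did not pass in males, and Nr3c1, the receptor gene itself, was at -0.32 ± 0.14 (0.155). The immediate early gene Dusp1 was the member that fell (-0.85 ± 0.15, adjusted p = 0.0169). Without male 1-4, 1 member was higher and 0 lower, and without 1-5, 2 and 1, where 5.91% and 4.25% of all genes were called in males.

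Of 22 antioxidant, NRF2 and metal-handling genes, 10 were higher and 0 lower in high-score males, and the median was 0.56. Among all genes 5.91% were higher and 4.25% lower in males, with a median of -0.01. Gclm, which encodes a subunit of the enzyme that makes glutathione's precursor, stood at 80.3, 52.7 and 54.5 CPM against 15.7 to 28.9 CPM (1.53 ± 0.25, adjusted p = 0.0161). Srxn1, the sulfiredoxin gene, stood at 113, 71.4 and 108 CPM against 21.6 to 40.4 CPM (1.72 ± 0.26, adjusted p = 0.0145). Nfe2l2, which encodes NRF2, stood at 88.4 to 104 CPM against 51.4 to 73.6 CPM (0.67 ± 0.15, adjusted p = 0.0288), and Nfe2l1, which encodes the related NRF1, differed by 0.14 ± 0.15 (adjusted p = 0.56). Females had a median of 0.05 in this list with 0 called. The call count in males was 1 without mouse 1-4 and 4 without 2-2.

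The upstream sequences of 4 of these genes are shown because NRF2 and the metal sensor MTF-1 bind short, well-known motifs in such promoters. Each is the 250 bases before the RefSeq start, 5′ to 3′ on the strand of the gene, in GRCm38.p6, with matches on either strand in capitals. In Gclm (chr3:122245307-122245556, plus strand) the capitals mark the antioxidant response element core TGACNNNGC. In Srxn1 (chr2:152105274-152105523, plus strand) they mark the variant TGANTCAGC, which can overlap the former. In Mt1 (chr8:94178839-94179088, plus strand) and Mt2 (chr8:94172368-94172617, plus strand) they mark the metal response element cores TGCACNC and TGCGCNC.
Gclm: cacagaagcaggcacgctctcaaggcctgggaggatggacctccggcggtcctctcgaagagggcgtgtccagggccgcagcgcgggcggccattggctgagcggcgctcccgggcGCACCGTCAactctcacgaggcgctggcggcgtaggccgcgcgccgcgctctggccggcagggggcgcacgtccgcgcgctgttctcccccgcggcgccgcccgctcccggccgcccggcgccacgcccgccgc
Srxn1: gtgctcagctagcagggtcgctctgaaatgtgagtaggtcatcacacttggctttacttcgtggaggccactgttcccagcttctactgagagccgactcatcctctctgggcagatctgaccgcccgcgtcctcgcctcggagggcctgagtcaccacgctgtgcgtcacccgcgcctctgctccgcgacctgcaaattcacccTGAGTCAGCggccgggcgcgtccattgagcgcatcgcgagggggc
Mt1: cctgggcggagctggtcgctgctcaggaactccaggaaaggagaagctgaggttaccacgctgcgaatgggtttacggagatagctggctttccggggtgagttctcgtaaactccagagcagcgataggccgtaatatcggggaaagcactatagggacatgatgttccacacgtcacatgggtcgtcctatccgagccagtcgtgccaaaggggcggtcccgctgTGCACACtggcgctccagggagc
Mt2: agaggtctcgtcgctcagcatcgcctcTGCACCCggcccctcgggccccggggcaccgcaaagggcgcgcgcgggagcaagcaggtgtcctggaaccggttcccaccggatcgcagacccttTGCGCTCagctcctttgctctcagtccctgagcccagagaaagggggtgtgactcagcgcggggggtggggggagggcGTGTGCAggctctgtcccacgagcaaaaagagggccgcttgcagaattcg
TGACNNNGC was found in 7 of 17 genes of the antioxidant list with a promoter sequence (41.2%), in 5 of 26 proteasome subunits (19.2%) and in 11.5% of all 27025 genes. TGANTCAGC was found in 3 of the 17 (17.6%), in 0 of the 26 and in 1.17% of all genes. The metal response cores were found in 6 of the 17 (35.3%), in 10 of the 26 (38.5%) and in 23.8% of all genes. A match is a description of these letters only.

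Metallothionein levels were spread widely among females. Mt1 stood at 95.4, 15.7 and 60.9 CPM in high-score and 82.8, 25.1 and 49.1 CPM in low-score females, against 122, 77.4 and 108 CPM and 30.7, 27.8 and 10.9 CPM in males. Vehicle mice held 8.96 to 20.9 CPM, so high-score female 2-4 lay within the vehicle range and low-score female 2-5 above it.

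Signals that act on muscle growth were also compared in males. Of 27 genes of IGF, insulin and mTORC1 signalling, 5 were higher and 4 lower. Igfbp3, an IGF-binding protein gene, stood at 49.2 to 54.8 CPM in high-score and 14.8 to 19.8 CPM in low-score males (1.60 ± 0.12, adjusted p = 0.00171). Igfbp5, another, stood at 54.0, 109 and 122 CPM against 229, 326 and 397 CPM (-1.75 ± 0.33, adjusted p = 0.022). In females the Igfbp5 tiers also did not overlap, at 242 to 266 CPM against 299 to 316 CPM. Eif4ebp1, a repressor of cap-dependent translation, stood at 159 to 276 CPM against 52.5 to 98.1 CPM in males (1.53 ± 0.29, adjusted p = 0.0222). Igf1 differed by -0.34 ± 0.14 (adjusted p = 0.136). In the myostatin, activin and TGF-beta axis 3 of 25 were higher and 3 lower. Mstn, the growth inhibitor myostatin, stood at 162 to 223 CPM against 107 to 112 CPM (0.77 ± 0.14, adjusted p = 0.0169), Inhbb, which encodes an activin subunit, differed by 1.80 ± 0.26, and Smad3 by -1.24 ± 0.21. Il6ra, the interleukin-6 receptor gene, stood at 53.0 to 84.7 CPM against 11.3 to 25.98 CPM in males (1.94 ± 0.33, adjusted p = 0.0192), and Osmr (0.33 ± 0.10, 0.0579) and Socs3 (-0.16 ± 0.18, 0.594) did not pass. Of 23 genes of ribosome biogenesis and polyamine synthesis, 6 were higher in males (median 0.34), led by the nucleolar gene Gnl3 (1.03 ± 0.16). Ribosomal protein genes had 0 of 74 called and a median of 0.12, with Rps27 at 0.32 ± 0.15 (adjusted p = 0.179). Over all genes 5.91% were higher and 4.25% lower. Without male 1-4 or 2-2, 0 genes of ribosome biogenesis were called, and 2 of IGF signalling were higher and 0 lower. In the myostatin axis 0 were called without male 1-4, and 1 higher and 1 lower without 2-2.

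Of 35 extracellular matrix genes, 10 were lower and 2 higher in high-score males, with a median of -0.45. Among all genes 4.25% were lower and 5.91% higher in males. In females 0 matrix genes were called and the median was 0.02. Col3a1 stood at 35.0, 64.6 and 45.4 CPM in high-score and 107, 211 and 171 CPM in low-score males (-1.77 ± 0.30, adjusted p = 0.0169), and at 374 to 1041 CPM in male vehicle mice. In females it stood at 84.2 to 234 CPM against 155 to 240 CPM, with no separation of the tiers. Col1a1 (-1.24 ± 0.37, adjusted p = 0.0717) did not pass, and the basement membrane collagen gene Col15a1 did (-1.41 ± 0.13, adjusted p = 0.00284). Lox, which encodes the enzyme that crosslinks collagen, ran the other way, at 40.01 to 51.0 CPM against 18.6 to 21.1 CPM in males (1.14 ± 0.12, adjusted p = 0.00443). Fibro-adipogenic progenitor markers, 11 genes, summed to 2264 to 2373 CPM in high-score and 2140 to 2576 CPM in low-score males, with 4 of 11 called lower. Their mean log2 level relative to vehicle males did not overlap, at -0.91 to -0.74 in high-score and -0.48 to -0.27 in low-score males. Smooth muscle cell and pericyte markers, 11 genes, summed to 769 to 844 CPM in high-score and 855 to 968 CPM in low-score males, without overlap, and 2 of 11 were called lower. Tendon markers, 10 genes with 0 called, summed to 165 to 243 against 164 to 276 CPM, and their mean log2 level was -1.36 against -0.85 relative to vehicle males. No defining marker of these 3 lists was at 0, and their part in the matrix result was not tested. Without male 1-4, 1 matrix gene was called lower and 1 higher, and without 2-2, 3 and 1.

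**Figure D4:**
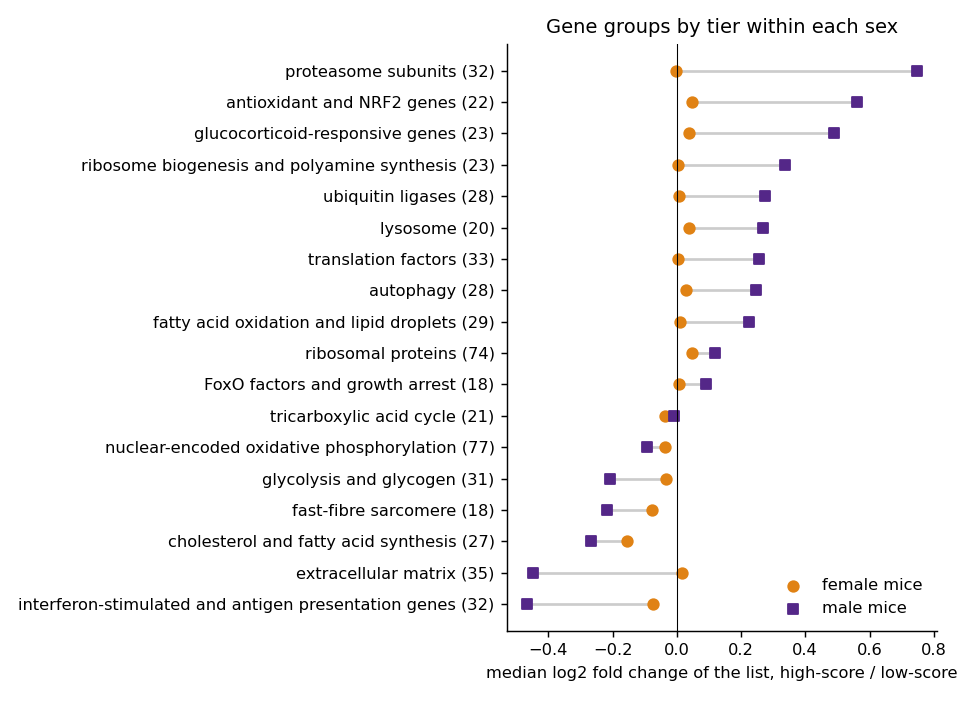
Each row is a gene list with the number of members tested in males, and the x axis is the median log2 fold change of high-score over low-score mice, circles for females and squares for males. Of the 18 lists plotted, proteasome subunits have the highest male median (0.75) and the interferon and antigen presentation list the lowest (-0.47), and the female medians run from -0.16 to 0.05.

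Some groups differed from vehicle mice by similar amounts in both tiers. Both tiers were set against the 12 vehicle mice in a fit of all 24 libraries, with sexes averaged. In it 23.7% of 17770 genes were called higher and 22.6% lower in the high-score tier, and 9.05% and 8.95% in the low-score tier, and since the tiers share these vehicle mice the values are given side by side only. Neutrophil markers were 4.63 (high) and 4.54 (low) above vehicle in median log2, with 17 of 17 called in each, and 0 of 17 called between the tiers. S100a8 stood at 14.0 to 25.7 CPM in high-score females, 16.3 to 45.9 in low-score females, 34.2 to 44.3 in high-score males and 14.8 to 40.8 CPM in low-score males, against at most 0.566 CPM in vehicle mice. Its tier difference over both sexes was 0.01 ± 0.32 (adjusted p = 0.994), and that of S100a9 was -0.10 ± 0.29 (adjusted p = 0.886). Nuclear-encoded oxidative phosphorylation genes were -0.32 and -0.26 against vehicle, with 59 and 38 of 77 called lower, and differed by -0.07 between the tiers with 0 called. Tricarboxylic acid cycle genes were -0.29 and -0.28, with 18 and 15 of 21 called lower. Ppargc1a, the coactivator of mitochondrial biogenesis, differed by 0.14 ± 0.13 between the tiers (adjusted p = 0.608). Proteasome subunits were 0.61 and 0.20 above vehicle, with 32 and 10 of 32 called. Between the tiers over both sexes only Fibin was called (0.00586% of genes higher and 0% lower). So 0 calls in a list, proteasome subunits included, does not show that its tiers were alike. Actc1, cardiac actin, and Ostn, osteocrin, were -2.35 and -1.73 in high-score and -1.75 and -1.27 in low-score mice against vehicle, with tier differences of -0.61 ± 0.40 (adjusted p = 0.45) and -0.44 ± 0.33 (0.514).

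Lastly the score was used as a continuous scale over the 12 LLC1 mice, with sex as a block, which keeps the distances between mice that the tiers discard. The slope was positive for 1217 genes (7.13%) and negative for 787 (4.61%). Within males alone 1556 slopes were positive and 1214 negative, and within females alone edgeR called 0, with 371 at an unadjusted p under 0.05. The pooled result rested on the ends of the male range: 193 and 163 were called without male 2-2, 262 and 187 without male 1-4, and 369 and 158 without male 1-5. The lowest adjusted p belonged to Tgif1, a repressor of TGF-beta responses, with 0.82 ± 0.08 log2 per score unit (adjusted p = 0.000726). Il6ra rose by 1.03 ± 0.12, Inhbb by 0.94 ± 0.12, Nfe2l2 by 0.39 ± 0.05 and Bach1, which encodes a repressor of NRF2 targets, by 0.56 ± 0.07 per unit (adjusted p = 0.00324 each). Of 32 proteasome subunits 27 were called, all positive, with a median of 0.37 per unit, and of 33 interferon-stimulated and antigen presentation genes 12 were called, all negative (median -0.25). The 27 proteasome calls became 0 without male 2-2, 5 without male 1-4 and 12 without male 1-5, with medians of 0.34, 0.35 and 0.25. The 12 interferon and antigen presentation calls became 3, 1 and 1 without the same mice. The slopes of males and females were compared as well, and 0 genes passed, with 1316 at an unadjusted p under 0.05, which does not show that the slopes are alike. In the 12 vehicle mice, whose scores covered 7.36 to 8.35, edgeR called 0% of 16913 slopes in either direction, with 493 at an unadjusted p under 0.05 (DESeq2 called 3 positive and 2 negative), and 29 of 32 proteasome subunits had a positive slope (median 0.12).

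**Figure D5:**
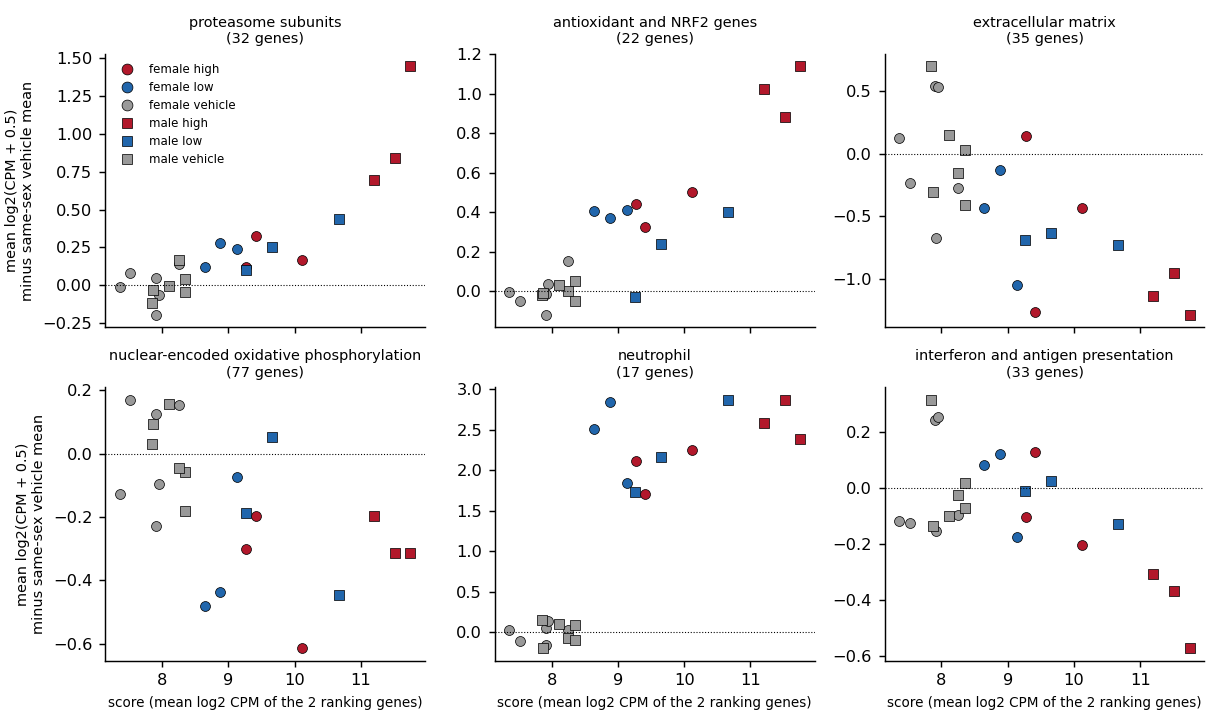
Each point is a mouse, with its score on the x axis and, on the y axis, the mean log2(CPM + 0.5) of a gene list minus the mean of the vehicle mice of the same sex; colours give the tier or vehicle and shapes the sex. Proteasome and NRF2 lists are highest in the high-score males, and the neutrophil list is above vehicle in every LLC1 mouse by 1.70 to 2.87.

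Across single mice the proteasome list stood at 1.45, 0.84 and 0.69 log2 units above the vehicle mean in high-score males 1-5, 2-4 and 2-1, and at 0.44, 0.25 and 0.10 in low-score males 2-5, 1-4 and 2-2. In females it stood at 0.17, 0.32 and 0.12 in the high-score mice and at 0.24, 0.28 and 0.12 in the low-score mice. The order of the males was that of their scores, and the female tiers overlapped throughout. Vehicle mice ranged from -0.20 to 0.17.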

How the data were processed

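Gastrocnemius poly(A) RNA from 24 mice was sequenced as unstranded TruSeq version 2 libraries made with 12 PCR cycles, per the labels' protocols. CASAVA, STAR, featureCounts and the mm10 build are named in the submitters' processing notes, with no version or setting. The authors deposited raw read counts per gene for 43346 genes, between 26.2 and 47.4 M (mega-counts) per library. The 37 mitochondrial genes hold 0 counts, so they were not analysed.

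From these counts, CPM were computed for the score with a pseudocount of 0.5, and genes were tested with edgeR 4.0.16 (TMM scaling, filterByExpr, robust quasi-likelihood fit, sex as block) in R 4.3.3. A gene was called at a Benjamini-Hochberg adjusted p under 0.05 over all genes tested. Fbxo32, Trim63 and Gm15943, which overlaps Fbxo32, were left out. Within-sex, interaction, continuous-score and vehicle fits used the same steps. DESeq2 1.42.0 and limma-voom 3.58.1 were alternatives, beside other filters, other scores and leaving out each mouse.

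Named genes were the 12 most raised and 12 most lowered among called genes of at least 1 CPM without shared reads and with non-overlapping tiers, up to 3 called genes per list, and a panel of muscle genes. A gene that met this rule is not reported here. The rule was written for both sexes together, and was carried over to males after 1 gene had passed there. Genes with the smallest p over both sexes, in the interaction and on the score slope were also named. Some further genes were named after their values had been seen. Of the 1040 genes in 46 lists (33 gene groups and 13 cell types), 1028 were found by symbol and 10 by a RefSeq synonym. The members, lists and tests were chosen with earlier results of these data known. Exons of 3586 genes overlap another counted gene, so their counts are uncertain. Replicates differed beyond sampling noise in all 30 pairs compared. Promoters came from RefSeq (GRCm38.p6).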

Additional observations from a re-analysis of the deposited data

Results flagged for a closer look

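Among 100 groups of 6 tested for a mouse far from the others, 9 held one, and chance alone marks about 1 in 20. In females, mouse 2-4 (high-score) had erythroid markers at 20213 CPM against 1295 to 3247 in the others, T cell and NK cell markers at 6.17 against 2.17 to 3.32 CPM, and Bnip3 at 438 against 292 to 322 CPM. Ppargc1a was 55.1 CPM in high-score female 2-1 against 29.98 to 36.5 CPM. In low-score male 1-4, T cell and NK cell markers summed to 22.5 CPM against 1.66 to 2.96, and B cell and plasma cell markers to 86.3 against 10.3 to 23.5 CPM. High-score male 1-5 had Schwann cell markers at 173 against 91.2 to 121 CPM. Epithelial markers summed to 11.8 CPM in low-score female 1-5 against 1.19 to 4.13 CPM, and to 10.1 CPM in high-score male 1-5 against 0.765 to 2.34 CPM.

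The tier difference differed between males and females for 18 of the named genes, by edgeR's interaction test with adjusted p between 0.0155 and 0.0482. Genes were named partly for their male tier difference or for the smallest p in this same interaction test. The 18 are therefore a description and not a separate result. Of all 17059 genes tested, 0.528% had a larger and 0.17% a smaller difference in males. The log2 difference, male minus female, was 2.53 for Oacyl, 2.20 for Slc39a14, 2.10 for Ampd3, 1.79 for Sesn1, 1.78 for Atp6v1h, 1.68 for Acot1, 1.64 for Acot2, 1.54 for Igfbp3, 1.43 for Zfand2a and 1.42 for Cdkn1a. It was 1.14 for Ppp1r15a, 0.95 for Gnl3 and 0.74 for Dnajb9. It was negative for Plcd4 (-2.93), Pde4a (-1.998), RP23-59N15.4 (-1.97), Sec14l5 (-1.81) and Nr4a1 (-1.27). No interaction was called without male 1-4 or 2-2, and the male tiers lie farther apart in score (1.63) than the female tiers (0.71).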

How the results depend on the processing

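Over both sexes, the 1 higher and 0 lower genes became 173 and 141 with DESeq2, 966 and 634 in a fit of all 24 libraries, and 1217 and 787 with the score as a continuous covariate. With the TMM-scaled score, in which females 2-1 and 2-5 exchange tiers, 87 were higher and 121 lower. Females alone gave 0 higher, and males alone 916 higher and 659 lower. Tiers from Fbxo32 alone, from Trim63 alone or from the top 2 and bottom 2 mice gave 0 higher, and no filter gave 1 lower. Leaving out each mouse gave 0 to 6 higher and 0 to 8 lower. The full title numbers did not pair female with male samples (correlations of 5 shared numbers from -0.105 to 0.0794, 1 of 5 best with its own number). What the first number marks within a sex is not in the labels and was not tested. With the first number as a replicate block 81 were higher and 188 lower, and with the full number 0 were higher. In females the first number and the tier are partly confounded. Every high-score female has first number 2, and low-score females 1-4 and 1-5 have 1.

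Within males DESeq2 called 1371 higher and 1094 lower, and leaving out each mouse gave 33 to 1033 higher and 10 to 707 lower. Within females DESeq2 called 6 higher and 11 lower, and leaving out each mouse left 0. The interaction had 580 and 265 calls with DESeq2, and 0 to 319 and 0 to 131 with a mouse left out. The slope on the score had 1655 higher and 1181 lower with DESeq2, and 193 to 1415 higher and 158 to 937 lower with a mouse left out. Among vehicle mice it had 3 and 2 calls with DESeq2, 2 and 3 with no filter, and 0 with a mouse left out. Leaving out each mouse, the tier differences were -0.61 to 2.77 M in total counts, -73.3 to 138 in genes detected, -2.32 to -1.36 percentage points in the share of the top 10 genes and -0.0129 to 0.0339 in the TMM factor. The cause of these shifts was not tested. Of 1239 list medians over both sexes, 82 moved by more than the spread between mice. Within males 30 of 450 list medians moved, and 267 of 1180 values of named genes kept their direction but no longer passed. No called value reversed.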
